A study of Homo sapiens with 4 samples.

Results

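Transcripts of 43 genes of homologous recombination and neighbouring DNA repair pathways were followed in the human ovarian carcinoma cell line SKOV3, with and without rhSTIP1. That abbreviation was taken to mean recombinant human STIP1, a cochaperone of HSP70 and HSP90 that cells also secrete. Total RNA was hybridised to 4 Affymetrix expression arrays, 2 from SKOV3 cells treated with rhSTIP1 and 2 from SKOV3 control cells without it, and the 2 arrays of a group are called array 1 and array 2 after the sample titles. The dose and the length of treatment are not given in those labels. Nor do they state that the 2 arrays of a group come from different cultures, so the p-values reflect the spread between arrays, which may be technical.

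The genes were chosen by name, and the brightest probe set that names a gene alone, by its mean over the 4 arrays, stood for it. Of the 43 genes, 37 had a probe set that names that gene alone, among 19775 such genes on the array. BRCA2, RBBP8, FANCA and FANCD2 had no probe set listed under their symbol in the annotation used and were not analysed here. PMS2 and NEIL1 were listed only on probe sets that also carry a second name, PMS2CL or MIR631, and were not tested. XRCC3 and FANCB were too dim to be tested, with mean signals of 46.8 and 22.2, under the median of all probe sets (69.4). That left 35 repair genes among 12296 genes tested.

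Homologous recombination copies the intact sister chromatid to mend a broken chromosome. Nucleases first trim the broken ends, the BRCA1 and PALB2 proteins bring in the strand-exchange recombinase, and helicases and translocases finish the exchange, while the Fanconi anemia proteins feed DNA interstrand crosslinks into the same route. Many of these genes are transcribed mainly in late G1 and S phase, and defects in them are common in ovarian carcinoma and sensitise cells to PARP inhibitors.

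The arrays held RNA of epithelial cells: all 8 markers of that kind (KRT7, KRT8, KRT18, KRT19, EPCAM, CDH1, ERBB2 and MUC1) reached the level for testing, with summed signals of 48906 and 51079 in rhSTIP1 cells and 45801 and 44894 in control cells. Of the markers of other cell types, 0 of 3 for leukocytes, 1 of 3 for endothelium (PECAM1) and 2 of 4 for fibroblasts (COL1A1 and DCN) reached it, and their summed signals stayed between 66.5 and 494 on each array. For ACTB the signal of the 3′ probe set over that of the 5′ probe set, a measure that degraded RNA raises, was 2.62 in rhSTIP1 array 1, 8.79 in rhSTIP1 array 2 and 2.74 and 2.45 in the control arrays, and that of GAPDH lay between 0.987 and 1.32. Pearson correlations between arrays over the tested genes ran from 0.952 to 0.979.

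Most of the repair genes had lower signals in rhSTIP1 cells, and the base excision gene NEIL3 and genes of recombination, of the Fanconi pathway and of theta-mediated end joining were furthest below the controls. The log2 fold change, the mean of log2(signal + 16) in rhSTIP1 arrays minus that in control arrays, was below 0 for 30 of the 35 and above 0 for 5, against 46.8% below 0 among all genes tested. Its median was −0.45 with quartiles of −0.80 and −0.09, where the median over all tested genes was 0.02. In 12 of the 35 both rhSTIP1 arrays lay under both control arrays and the difference was at least 1.5-fold, and in 0 the reverse held. Over all tested genes 3.79% were separated in this way as lower and 1.90% as higher, or 2.85% and 2.65% if each array was first centred on its median. At any size of difference 18 of the 35 lay wholly below the controls and 0 above, against 14.9% and 14.0% of all genes. NEIL1, which was not tested, lay wholly above the controls on the brighter of its shared probe sets, at 0.23. PMS2, also not tested, overlapped on both of its shared probe sets.

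No repair gene passed the test over all genes, in which arrays were not paired by their number. A fit that takes the number as a block called some repair genes and is given in the last section. With limma and Benjamini-Hochberg adjustment 0 of the 35, and 0.00% of all genes, had an adjusted p under 0.05, and the smallest adjusted p among repair genes was 0.528, for NEIL3. An unadjusted p under 0.05 was reached by 12 repair genes that were lower and 0 that were higher, beside 2.64% and 1.04% of all genes. These were 11 of the 12 separated genes and PARP2, whereas EXO1 was separated without such a p. For 1 gene, the smallest p that an exact two-sided permutation test can reach in this design is 0.333.

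The median log2 fold change of the repair genes moved with single arrays. Leaving out rhSTIP1 array 1 gave −0.20, beside 0.028 over all tested genes. Dropping control array 1 instead gave −0.34, beside −0.005 over all tested genes. By definition the 18 genes wholly below the controls, the 12 separated genes among them, stay below 0 whichever array is left out. Counting these, 23 of the 35 had a log2 fold change below 0 whichever array was left out.

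**Figure D1:**
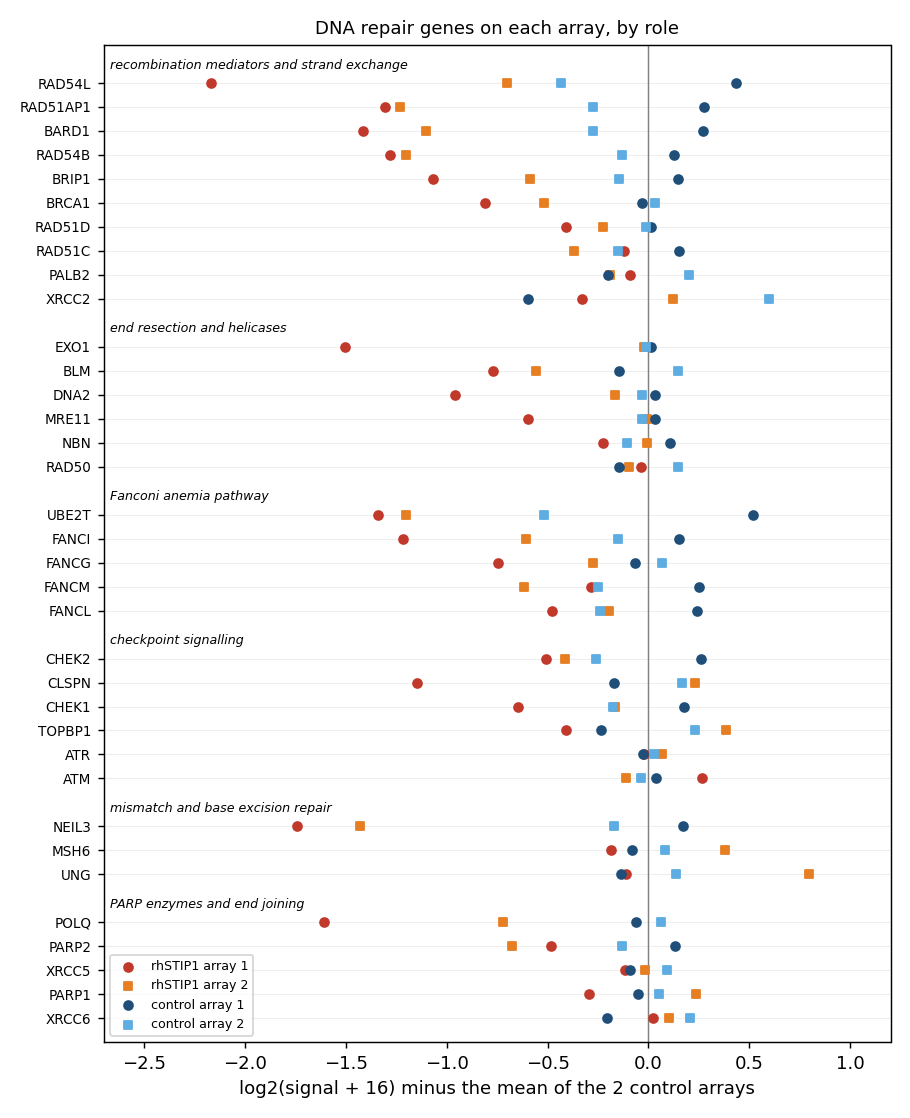
Signal of each of the 35 tested repair genes on each array, as log2(signal + 16) minus the mean of the 2 control arrays, grouped by role and ordered by log2 fold change. The 4 points of a gene are its 4 arrays, and for the 12 separated genes, NEIL3 among them, both rhSTIP1 points lie to the left of both control points.

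BRCA1 and its direct partners BARD1 and BRIP1 had lower signals in rhSTIP1 cells. BRCA1, which pairs with BARD1 to form a ubiquitin ligase that promotes end trimming and recombinase loading, had signals of 1026 and 1259 in rhSTIP1 cells, against 1767 and 1852 in control cells. Both rhSTIP1 arrays lay under both controls, and the log2 fold change was −0.66 ± 0.24 (standard error here and below, n = 2 arrays per group), with an unadjusted p of 0.0251 in limma and an adjusted p of 0.999. BARD1 had 423 and 529 in rhSTIP1 cells and 1396 and 951 in control cells, 2.39-fold lower at −1.26 ± 0.28. BRIP1, a helicase that binds BRCA1, had 292 and 414 in rhSTIP1 cells and 698 and 568 in control cells, at −0.83 ± 0.28. All 3 genes lay below both controls on both rhSTIP1 arrays. PALB2, which joins BRCA1 to the recombinase loader, overlapped between groups at −0.14 ± 0.25, with signals of 719.8 and 672 in rhSTIP1 cells and 665 and 886 in control cells.

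Among genes whose proteins work on the recombinase filament, the largest differences lay in RAD51AP1 and the RAD54 translocases. RAD51AP1, which helps the filament invade its partner duplex, had signals of 669.5 and 708 in rhSTIP1 cells, against 2039 and 1385 in control cells (−1.27 ± 0.27, unadjusted p = 0.00176 in limma). RAD54B, a DNA translocase of the same step, had 214 and 227 in rhSTIP1 cells and 595 and 495 in control cells, 2.36-fold lower at −1.24 ± 0.26. For both genes the rhSTIP1 arrays were close to each other and far below either control. A slightly brighter probe set that RAD54B shares with another gene, FSBP, had −0.52. The related translocase RAD54L was more scattered, at 53.7 and 176 in rhSTIP1 cells and 407 and 215 in control cells. Its log2 fold change of −1.44 ± 0.53 became −0.70 without rhSTIP1 array 1 and −2.17 without rhSTIP1 array 2. The recombinase paralogs, which form complexes that steady the filament, differed less: RAD51C had −0.25 ± 0.24, RAD51D −0.32 ± 0.30 and XRCC2 −0.10 ± 0.44. Of these 3 genes, RAD51D alone was not overlapping, with 147 and 169.7 in rhSTIP1 cells and 203 and 199 in control cells. The control arrays of XRCC2 were themselves further apart than the groups, at 114 and 283. With BRCA1, BARD1, BRIP1 and PALB2, the filament genes form the role of recombination mediators and strand exchange. Of its 10 tested genes 6 were separated lower by at least 1.5-fold, against 3.79% of all genes. BRCA1, BARD1 and BRIP1 were among the 6. The median over the 10 was −0.75.

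Among genes for trimming and unwinding DNA ends, BLM and EXO1 were separated and the genes of the complex that senses the ends overlapped. BLM, a helicase that acts in long-range trimming and in dissolving joined chromosomes, had signals of 259.9 and 304 in rhSTIP1 cells and 409 and 505 in control cells, at −0.66 ± 0.27. EXO1, a nuclease of the same step, had 82.8 and 259.7 in rhSTIP1 cells, against 266 and 262 in control cells. Its difference of −0.76 ± 0.47 lay in rhSTIP1 array 1 and was −0.02 without that array. DNA2, a nuclease and helicase, had −0.56 ± 0.33 and became −0.17 without the same array. The MRE11, RAD50 and NBN proteins form the complex that binds broken ends first. MRE11 had signals of 204 and 316 in rhSTIP1 cells and 325 and 309.9 in control cells, at −0.30 ± 0.30. RAD50 had 1760.5 and 1688 in rhSTIP1 cells and 1631 and 2001 in control cells, at −0.07 ± 0.24. NBN had 3699 and 4307 in rhSTIP1 cells and 4658 and 4019.6 in control cells, at −0.12 ± 0.22. On the brightest probe set the groups overlapped for each of these 3 genes, while other probe sets of NBN and RAD50, given below, did not overlap. Of the 6 tested genes of this role 2 were separated lower by at least 1.5-fold, against 3.79% of all genes.

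In the Fanconi anemia pathway all 5 tested genes had a log2 fold change below 0, as did 46.8% of all genes. UBE2T and FANCI were separated lower by at least 1.5-fold, against 3.79% of all genes. UBE2T, the conjugating enzyme that attaches ubiquitin to the FANCI and FANCD2 pair, had signals of 617 and 681 in rhSTIP1 cells and 2277 and 1105 in control cells. Its log2 fold change was −1.27 ± 0.35, and it was −0.76 without control array 1 and −1.79 without control array 2. FANCI, a substrate of that enzyme, had 699.6 and 1077 in rhSTIP1 cells and 1834 and 1482 in control cells, at −0.91 ± 0.29, and it had −0.61 without rhSTIP1 array 1. FANCG (−0.51 ± 0.26), a subunit of the core complex, and FANCM (−0.45 ± 0.36), the translocase that anchors that complex on DNA, lay below both controls by less than 1.5-fold. FANCL, the ubiquitin ligase of the core complex, overlapped at −0.34 ± 0.26.

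The apical kinases of the DNA damage checkpoint, ATM and ATR, had nearly equal signals in the groups. ATM, which answers double-strand breaks, had signals of 1368 and 1050.2 in rhSTIP1 cells and 1166 and 1108 in control cells, at 0.08 ± 0.25. ATR, which answers stalled forks, had 1551 and 1648 in rhSTIP1 cells and 1545 and 1602 in control cells, at 0.02 ± 0.23. The ATR activator TOPBP1 had −0.01 ± 0.33 and its adaptor CLSPN −0.46 ± 0.50, both with overlapping groups. CHEK2, the effector kinase of ATM, was below both controls, at 204 and 219 in rhSTIP1 cells against 359 and 245 in control cells (−0.46 ± 0.30). CHEK1, the effector kinase of ATR, had −0.41 ± 0.29 and overlapped on its brightest probe set. Its dimmer probe sets at −0.74 and −0.89 lay below both controls, and another at −0.09 overlapped. Each by its brightest probe set, 0 of the 6 checkpoint genes were separated by at least 1.5-fold. Of all genes 3.79% were separated lower in this way and 1.90% higher.

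Base excision repair held the gene with the largest difference among the 35, NEIL3, while UNG and MSH6 overlapped between groups. It encodes a glycosylase that cuts damaged bases from single-stranded DNA and unhooks crosslinks at forks, and it had signals of 219.9 and 276 in rhSTIP1 cells and 869.5 and 685 in control cells. Both rhSTIP1 arrays were far under both controls, 3.0-fold lower at −1.59 ± 0.27 (unadjusted p = 0.000441 in limma), and it stayed between −1.75 and −1.42 when any 1 array was left out. UNG, the glycosylase that removes uracil, had 0.34 ± 0.33, with 1308 and 2472 in rhSTIP1 cells and 1288 and 1557 in control cells. It became 0.80 without rhSTIP1 array 1 and −0.11 without rhSTIP1 array 2. MSH6, a mismatch recognition subunit, overlapped at 0.10 ± 0.26.

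Among PARP and end-joining genes POLQ and PARP2 lay below both controls, while PARP1 and the Ku genes overlapped. POLQ, the polymerase of theta-mediated end joining, had signals of 233 and 443 in rhSTIP1 cells and 710.4 and 776 in control cells, at −1.17 ± 0.33, and it had −0.72 without rhSTIP1 array 1. PARP2, a poly(ADP-ribose) polymerase, had 1347 and 1174 in rhSTIP1 cells and 2071 and 1720.2 in control cells, at −0.58 ± 0.24, and lay just short of 1.5-fold. PARP1, the main target of PARP inhibitors, overlapped at −0.03 ± 0.26, with 1371 and 1989 in rhSTIP1 cells and 1627 and 1745 in control cells. XRCC5 and XRCC6 encode the Ku subunits that hold ends for classical end joining. XRCC5 had 6562 and 7038 in rhSTIP1 cells and 6676 and 7584 in control cells, at −0.07 ± 0.19. XRCC6 had 10784 and 11365 in rhSTIP1 cells and 9193 and 12224 in control cells, at 0.06 ± 0.20.

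**Figure D2:**
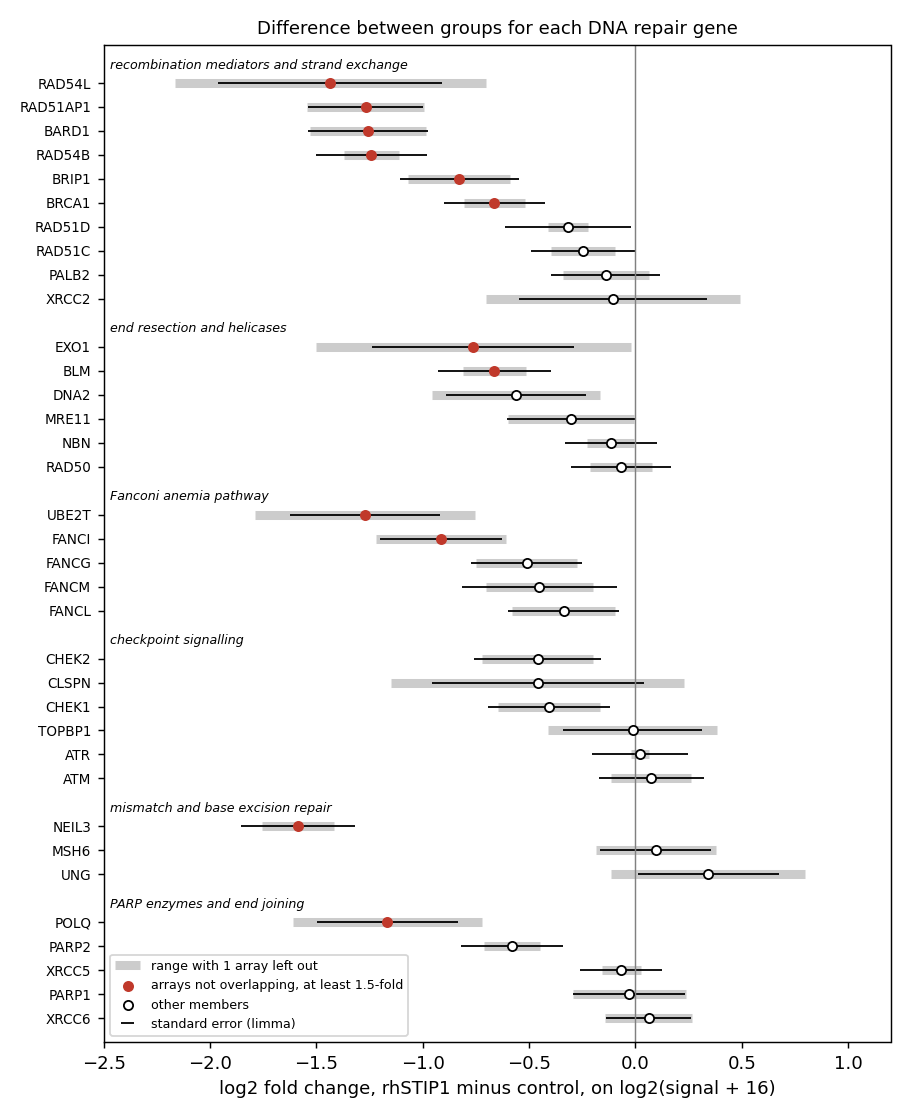
Log2 fold change of each tested repair gene, rhSTIP1 minus control, with its standard error from limma (black) and its range with 1 array left out (grey band). The 12 filled genes were separated by at least 1.5-fold, and the bands of EXO1 (from −1.50 to −0.02) and RAD54L (from −2.17 to −0.70) are wide.

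The promoters of the repair genes with the smallest p are shown because genes lower in the same cells may carry common sequence words. RefSeq windows (GRCh38.p14) from 250 bases before to 50 after a gene's start were matched by symbol for 30 of the 35 genes, with none used for DNA2, FANCI, NBN, RAD54B and XRCC5. Capitals mark CCAAT, the box bound by NF-Y, and TTTGAA, the cell cycle homology region known from G2 and mitosis promoters, on either strand, and positions count from the start site. NEIL3 (chr4:177309624-177309923, plus strand) held a CCAAT starting at −223 and a TTTGAA at −24. RAD51AP1 (chr12:4538640-4538939, plus strand) held a CCAAT read on the opposite strand, from −70. UBE2T (chr1:202341887-202342186, minus strand) held CCAAT at −124 and −73 and TTTGAA at −153. In BARD1 (chr2:214809634-214809933, minus strand) neither word was in the window.
NEIL3: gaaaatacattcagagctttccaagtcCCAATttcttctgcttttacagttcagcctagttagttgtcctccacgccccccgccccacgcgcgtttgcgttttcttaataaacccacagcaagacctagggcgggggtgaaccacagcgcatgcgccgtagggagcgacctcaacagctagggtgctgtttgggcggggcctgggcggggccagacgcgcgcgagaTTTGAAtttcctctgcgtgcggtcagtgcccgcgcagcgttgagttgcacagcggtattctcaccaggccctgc
RAD51AP1: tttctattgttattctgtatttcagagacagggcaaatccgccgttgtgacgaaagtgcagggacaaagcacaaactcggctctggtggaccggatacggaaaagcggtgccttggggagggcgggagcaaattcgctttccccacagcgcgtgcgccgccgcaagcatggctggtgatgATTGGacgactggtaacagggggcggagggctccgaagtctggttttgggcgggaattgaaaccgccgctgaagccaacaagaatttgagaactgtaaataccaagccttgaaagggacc
UBE2T: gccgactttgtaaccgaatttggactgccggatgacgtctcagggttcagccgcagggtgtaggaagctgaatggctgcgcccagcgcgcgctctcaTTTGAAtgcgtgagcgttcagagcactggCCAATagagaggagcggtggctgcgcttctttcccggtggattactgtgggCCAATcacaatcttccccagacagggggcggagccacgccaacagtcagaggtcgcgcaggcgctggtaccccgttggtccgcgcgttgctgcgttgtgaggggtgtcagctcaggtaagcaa
BARD1: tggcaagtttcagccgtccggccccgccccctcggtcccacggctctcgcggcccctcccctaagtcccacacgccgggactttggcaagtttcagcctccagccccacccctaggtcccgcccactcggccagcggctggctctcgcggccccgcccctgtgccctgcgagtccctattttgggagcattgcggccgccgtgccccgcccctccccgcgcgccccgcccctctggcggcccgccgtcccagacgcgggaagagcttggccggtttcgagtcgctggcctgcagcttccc

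Over all 35116 promoter windows of that length, 34.6% held CCAAT and 15.2% held TTTGAA. Among 42 windows of the tested repair genes the shares were 52.4% and 14.3%. By gene, CCAAT stood in a window of 7 of 10 separated genes and 10 of 20 others, and TTTGAA in 4 of 10 and 2 of 20, where over all genes with a window the shares by gene were 39.7% and 18.2%. A word for E2F factors, searched on both strands as TTTCCCGC, TTTCGCGC, TTTGCCGC or TTTGGCGC, stood in 3.31% of all windows and in 7 of the 42. It was found for CLSPN, EXO1, MSH6, TOPBP1, XRCC2, UNG and XRCC6, of which EXO1 alone was separated by at least 1.5-fold. These counts describe letters in the windows and were not tested, and windows of 1 gene can overlap.

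Repair genes put on a list of S-phase genes and the other repair genes differed in size of change. On the S-phase list 18 genes were tested, such as BRCA1, BARD1, FANCI, UBE2T, POLQ, CHEK1 and XRCC2. Of these, 16 had a log2 fold change below 0, as did 46.8% of all genes, and UNG (0.34) and MSH6 (0.10) were above 0. In 12 of the 18 the arrays were separated lower by at least 1.5-fold, and the median log2 fold change was −0.80. Of the 17 others, such as ATM, RAD50, PARP1 and XRCC6, 0 were separated in that way and the median was −0.14. The share of all tested genes was 3.79%, as above. The S-phase list was drawn up with earlier results of these arrays known, so this division is a description.

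Cell cycle genes outside the list were lower as well. On a list of 24, all 24 had negative log2 fold changes. Their median was −0.83, and 11 were separated by at least 1.5-fold, although 0 passed limma's adjusted test and 9 had an unadjusted p under 0.05. Over all tested genes 46.8% were below 0, 3.79% were separated lower in that way and 2.64% were lower with such a p. The median was −1.27 for 9 mitosis genes, such as MKI67, TOP2A and CDK1, and 7 of them were separated lower by at least 1.5-fold. For 15 genes of G1/S and replication, such as MCM2 to MCM7, PCNA and E2F1, it was −0.19, and 4 were separated in that way. These 4 were RRM2 (−1.78), E2F2 (−1.04), TYMS (−0.93) and CDC45 (−0.75). In bulk RNA, fewer cells in S phase and less RNA per cell cannot be told apart. The part of cell cycle phase in the repair gene differences was not tested.

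Differences between arrays of the same group ran along these lists too. In rhSTIP1 array 2 all 18 S-phase repair genes were above rhSTIP1 array 1, by a median of 0.48 on the log2 scale, and 29 of all 35 repair genes were. The same difference was 0.75 for G1/S and replication genes and −0.93 for mitosis genes. Control array 2 minus control array 1 gave −0.16 for S-phase repair genes, 0.14 for G1/S and replication genes and −1.17 for mitosis genes. Set against control array 1 and control array 2, S-phase repair genes had medians of −1.29 and −0.98 for rhSTIP1 array 1 and −0.57 and −0.46 for rhSTIP1 array 2. All 12 separated genes are on this list and are below both controls by definition, so the sign of these medians adds nothing to that count. G1/S and replication genes had medians of −0.69 and −0.83 for rhSTIP1 array 1 and 0.41 and −0.05 for rhSTIP1 array 2. Mitosis genes went the other way, with medians of −1.47 and −0.32 for rhSTIP1 array 1 and −2.19 and −1.17 for rhSTIP1 array 2. The ACTB ratio of 8.79 belongs to rhSTIP1 array 2, where S-phase repair genes were less decreased and mitosis genes more. The part of that ratio in the result was not tested.

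**Figure D3:**
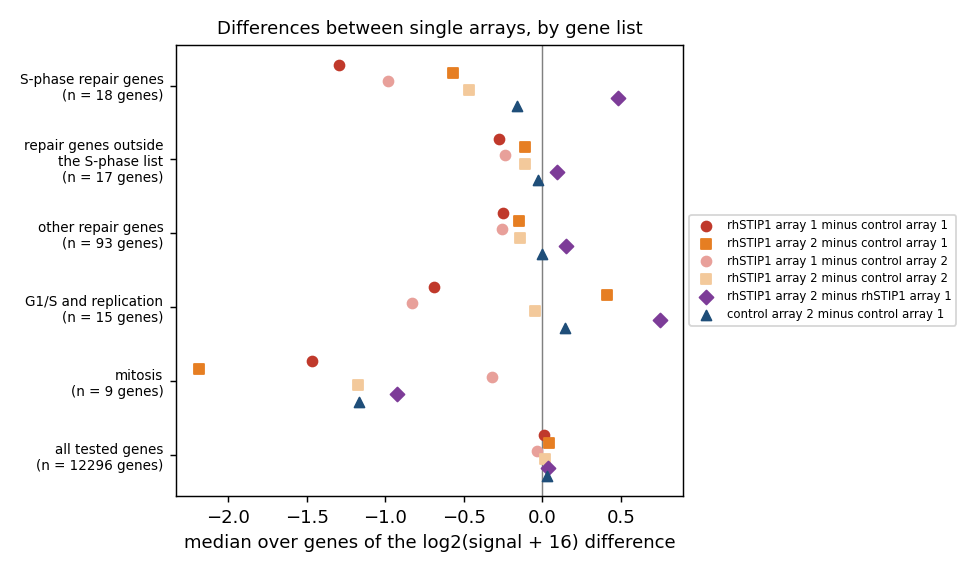
Median difference between single arrays over the genes of 6 lists, in log2(signal + 16). For S-phase repair genes the 4 rhSTIP1 minus control medians lie between −1.29 and −0.46, and the 2 differences within a group lie at 0.48 for rhSTIP1 and −0.16 for control.

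Other probe sets of the same gene were compared, since each probe set reads a different stretch of the transcripts. Among the tested genes 16 had at least 2 probe sets with a mean signal of 69.4 or more, and in 6 of them (ATM, ATR, RAD50, MSH6, XRCC5 and XRCC6) the probe sets differed in sign. In the separated genes with several such probe sets they had the same sign. BRCA1 had −0.66 and −0.91, BRIP1 −0.83 and −1.01, POLQ −1.17 and −0.82, and the 3 probe sets of FANCI lay between −1.12 and −0.68. BARD1 had −1.26, −1.11 and −0.54. CHEK1 depended on the choice: its brightest probe set had −0.41 with overlapping groups, another −0.09, and 2 others had −0.74 and −0.89 with both rhSTIP1 arrays below both controls. NBN ranged from −0.57 to −0.12 over 4 probe sets, and on those at −0.57 and −0.42 both rhSTIP1 arrays lay below both controls. A dimmer probe set of RAD50, at 0.31, lay wholly above the controls. MSH6 had 0.10 on its brightest probe set and −0.46 on a dimmer one. RAD54B was also listed on 2 probe sets shared with FSBP, which had −0.52 and −0.05 against −1.24 for its own. The one at −0.52 was brighter than its own, with a mean signal of 390 against 383. On it RAD54B lay below both controls by less than 1.5-fold. The probe sets used for XRCC2 and PARP2 are of a type that the maker marks as open to cross-hybridisation. So are, among others, those of BRCA1 at −0.91 and NBN at −0.57, and the one used for DCLRE1C, named below.

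**Figure D4:**
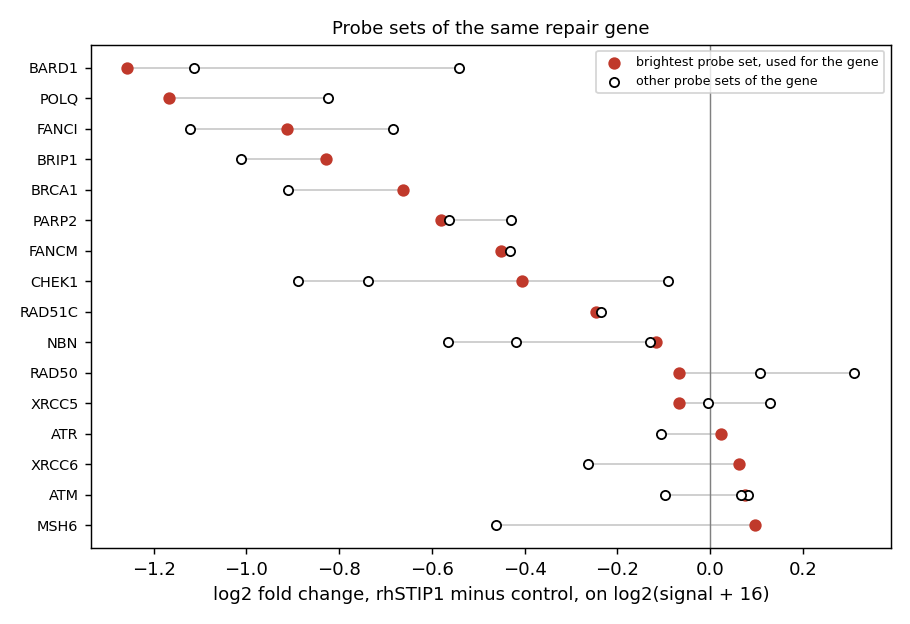
Log2 fold change, rhSTIP1 minus control, of each probe set with a mean signal of 69.4 or more, for the 16 repair genes with several. Filled points are the brightest probe set, used for the gene, and CHEK1 spans the range from −0.89 to −0.09.

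Repair genes beyond the 43 were lower to a smaller extent. Of 102 others on a list of recombination, excision, end joining, translesion and damage signalling genes, 93 were tested. Of these 71 had a log2 fold change below 0 and 22 above, against 46.8% below 0 among all genes. Their median was −0.18. The count separated by at least 1.5-fold was 10 lower and 0 higher, against 3.79% and 1.90% of all genes. With limma 0 passed the adjusted test, and 6 lower and 0 higher genes had an unadjusted p under 0.05. The shares of all genes with such a p were 2.64% and 1.04%. H2AX, the histone variant phosphorylated around breaks, had signals of 3152 and 4189 in rhSTIP1 cells and 9182 and 6152 in control cells, at −1.05 ± 0.27. RMI1, a partner of BLM, had 677 and 774 in rhSTIP1 cells and 1289.8 and 1256 in control cells, at −0.80 ± 0.23. Both genes lay well below the controls on both arrays. The other 8 separated genes were POLH (−1.06 ± 0.38), a translesion polymerase, FIRRM (−0.96 ± 0.35) and PARPBP (−0.91 ± 0.33), regulators of recombination, the Artemis nuclease gene DCLRE1C (−0.69 ± 0.33), SFR1 (−0.67 ± 0.31), the Holliday junction resolvase GEN1 (−0.61 ± 0.33), the helicase MCM8 (−0.60 ± 0.28) and the ubiquitin ligase RAD18 (−0.59 ± 0.36).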

How the data were processed

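The authors deposited linear intensities, 1 per probe set and array. Per the submitters' processing notes they come from MAS5 and Affymetrix Expression Console 1.1. MAS5 summarises each array alone and scales it to a common target, and in the deposited table the mean after trimming 2% from each end was 500.1 on every array. Detection calls were not used here, so dim signals cannot be set apart from background. Precision is limited by having only 4 arrays.

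Of 54675 probe sets 62 were controls, 41091 of the others had 1 gene symbol, 1801 several and 11721 none. Each gene took its brightest probe set with 1 symbol and was tested where its mean reached 69.4. Arrays were compared with limma 3.58.1 in R 4.3.3 (lmFit, eBayes with intensity trend) on log2(signal + 16), two-sided, adjusted over 12296 genes, with no further scaling. On that scale the change of a dim gene is understated. The steps were tested on simulated data. Alternatives covered pseudocount, filter, scaling, probe sets, eBayes settings, the replicate number as a block and each array left out.

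The members, the gene lists and the tests were chosen with earlier results of these data known. All 4 signals are given for members separated by at least 1.5-fold, for those with an unadjusted p under 0.05 and for a fixed set (BRCA1, ATM, ATR, CHEK2, PARP1, XRCC5, XRCC6, MRE11, RAD50, NBN). PALB2, RAD51D, UNG and the control arrays of XRCC2 were added after their values were seen. So were the log2 fold changes of RRM2, E2F2, TYMS and CDC45. Other repair genes are named where separated by at least 1.5-fold, and promoters are those of the 4 members with the smallest unadjusted p that had a usable window.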

Additional observations from a re-analysis of the deposited data

How the results depend on the processing

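Under the other pseudocounts, filters, scalings, probe set choice and eBayes settings, 0 repair genes passed limma's adjusted test, and with 1 array left out 0 passed as well. Over all genes 0 passed, except 1 with a filter at the 70th percentile, 2 with robust eBayes and 0 to 6 with 1 array left out. The replicate number as a block called 247 genes and 7 repair genes (BARD1, RAD51AP1, RAD54B, FANCI, UBE2T, NEIL3 and POLQ, all lower). It has only 2 pairs, whose deviations correlated at 0.36. Over the tested genes, signals of arrays with the same number correlated at 0.967 and 0.979, and those of the same group at 0.964 and 0.967. The crossed pairs had 0.952 (rhSTIP1 array 2 and control array 1) and 0.969. No label says that a number marks a shared culture or day, and whether it does was not tested. The median log2 fold change of repair genes was −0.33 with a pseudocount of 64 and ran from −0.52 to −0.20 with 1 array left out, where 6 to 13 repair genes had an unadjusted p under 0.05 and 11 to 17 were separated lower by at least 1.5-fold. Fewer values need to be apart there, and the share of all genes separated in that way was 5.32% to 8.41%. Among 22 genes followed by name, signs turned in 6 that were near 0, and RAD54L, EXO1, MRE11 and CHEK2 had no value with the filter at the 70th percentile. With the mean of all probe sets RAD50 had 0.12, ATM −0.053, ATR −0.15, XRCC5 0.019 and XRCC6 −0.10. PARP1 had 0.027 with median centring and 0.0067 with quantile normalization, where XRCC6 had −0.0082. With 1 array left out ATM ran from −0.11 to 0.26, ATR from −0.020 to 0.066, RAD50 from −0.21 to 0.079, PARP1 from −0.29 to 0.24, XRCC5 from −0.16 to 0.026 and XRCC6 from −0.14 to 0.27. With an array left out the lone array of its group is assumed to vary like the other group, and beyond the number of arrays used the cause of these shifts was not tested.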
